A study of Mus musculus with 8 samples.

Results

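The aminoacyl-tRNA synthetases are the enzymes that attach each amino acid to its matching transfer RNA, and their genes are described here in regulatory T cells (Tregs) from mouse skin and spleen. The genes are a list of symbols, set with earlier results of these data known, Vars among them. Of the 36 symbols given, 35 had an entry among the 55011 in the count table, and all 35 were among the 12414 genes with enough counts to be tested. Of these, 19 encode cytosolic enzymes, counting Kars and Gars, whose single genes also supply the mitochondrial enzymes, and 16 encode mitochondrial enzymes. The symbol Mars had no entry. The table held Mars1, for which RefSeq lists Mars as a synonym, and its values are given beside the 35 and are not counted with them.

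The 8 libraries were RNA sequencing of Tregs from untreated mice aged 2 weeks (day 13 in the sample names). There were 4 groups of 2 libraries each: Pparg+/+ Foxp3-Cre (WT) skin, Ppargf/f Foxp3-Cre (KO) skin, WT spleen and KO spleen. Each library was made from 1000 sorted cells. Both genotypes carried Foxp3-Cre, in which Foxp3 regulatory sequence drives the Cre recombinase, so that the floxed Pparg allele is cut in cells that express Foxp3, the transcription factor that defines Tregs. Pparg encodes a lipid-activated nuclear receptor that is high in Tregs of several non-lymphoid tissues. The number of animals behind each library is not stated, so p-values here reflect library-to-library spread alone, which may be technical.

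Library totals ran from 3115832 to 4466963 counts. Pparg, the targeted gene, had skin levels of 67.8 ± 11.3 (WT) and 10.9 ± 3.41 (KO) CPM, counts scaled by library size (mean ± SD, n = 2), and spleen levels of 17.4 ± 7.18 (WT) and 1.91 ± 0.352 (KO). All 11 Treg markers were detected, at a summed 8598 to 9392 CPM in the skin libraries and 5374 to 5807 CPM in the spleen libraries. Summed over their lists, B cell markers reached at most 50.3 CPM in any library, myeloid markers 35.1 CPM, CD8 T and NK cell markers 31.6 CPM and keratinocyte markers 10.7 CPM. Langerhans and dendritic cell markers summed to 158.6 and 214 CPM (WT) and 284.6 and 222 CPM (KO) over the skin libraries, and over those of spleen to 59.0 and 67.0 CPM (WT) and 48.6 and 47.0 CPM (KO). For fibroblast and endothelial markers the sums were 102.8 to 155 CPM (skin) and 277 to 376 CPM (spleen). The keratinocyte genes Dsg1a and Lor and the fibroblast gene Pdgfra were at 0 in all 8 libraries, and the Langerhans cell gene Cd207 was at 0 in all but the KO skin group.

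Each synthetase recognises its amino acid and its tRNA, activates the amino acid with ATP and joins it to the tRNA, and the charged tRNA then delivers it to the ribosome. Cytosolic and mitochondrial protein synthesis mostly use separate enzymes from separate nuclear genes, the latter usually marked by a 2 at the end of the symbol. Several cytosolic enzymes sit together in a multi-synthetase complex held by scaffold proteins, and many cytosolic synthetase genes are targets of ATF4, the transcription factor of the integrated stress response, which is translated when uncharged tRNA or other stresses accumulate. Vars encodes the cytosolic enzyme that charges valine tRNA, and Vars2 its mitochondrial counterpart.

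ATF4 binds composite elements of the type TGATGNAA, so promoters of the synthetase genes were searched for these letters on both strands. RefSeq promoters (GRCm38.p6, 250 bases before to 50 after the start) were matched by symbol for 26 of the 35 genes. Those without an entry were Vars, Cars, Hars, Lars, Nars, Rars, Wars, Hars2 and Pars2. The letters occurred in 5 of the 26 promoters (19.2%), against 4.51% of 27025 promoters of all genes. A window of 30 bases around 1 such element is shown for each of the 5 genes because Aars and Gars, the alanine and glycine enzymes, are among the genes described below as higher in skin, while Iars, Tars and Yars (isoleucine, threonine and tyrosine) did not pass the test in any comparison. Each is written 5′ to 3′ on the gene's own strand, with the element, or its reverse complement, in capitals.
Aars (chr8:111033840-111033869, + strand, after the start): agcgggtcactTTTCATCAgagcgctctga
Gars (chr6:55037960-55037989, + strand, before the start): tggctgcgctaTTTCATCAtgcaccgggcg
Iars (chr13:49682126-49682155, + strand, after the start): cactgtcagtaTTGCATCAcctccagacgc
Tars (chr15:11399655-11399684, - strand, before the start): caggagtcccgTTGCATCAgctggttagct
Yars (chr4:129189895-129189924, + strand, after the start): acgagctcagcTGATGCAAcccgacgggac
In 4 of the 5 genes the element stood as its reverse complement, and Yars had it in the forward orientation. The E-box CACGTG, which MYC and related factors bind, was in 5 of the 26 promoters (19.2%; Aars, Ears2, Farsb, Iars and Tars) against 8.09% of all promoters. The palindromic interferon-activated site TTCNNNGAA was in 3 of the 26 (11.5%; Aars, Kars and Nars2) against 9.55% of all. Aars, Iars and Tars held both TGATGNAA and CACGTG. A match is a description of letters only.

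Vars was the one synthetase gene called by genotype, higher in KO skin and lower in KO spleen. Vars lies at chr17:35000987-35016322 on the + strand (GRCm38, GENCODE M21; gene ENSMUSG00000007029), and no other annotated exon overlaps its exons. The WT skin libraries had 72.8 and 108 CPM (295 and 304 counts), whereas those of KO skin had 150 and 191 CPM (569 and 633 counts). Both KO libraries were above both WT libraries. The KO mean was higher by 0.92 ± 0.180 (log2 fold change ± SE; 1.90-fold; edgeR quasi-likelihood test with Benjamini-Hochberg adjustment over 12414 genes, adjusted p = 0.0205). In bulk libraries, fewer cells of a type that express a gene and less RNA per cell cannot be told apart, and this holds for every level given here.

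In spleen, Vars was at 183 and 170 CPM in WT (782 and 594 counts) and at 86.3 and 73.1 CPM in KO (320 and 308 counts). Here both KO libraries were below both WT libraries, with no overlap. The log2 fold change was -1.15 ± 0.179, a level 2.22-fold lower in KO (edgeR adjusted p = 0.0120). The genotype effect in skin minus that in spleen was 2.07 ± 0.254 on the log2 scale (edgeR adjusted p = 0.00446), the smallest p among the 12414 genes. Averaged over both tissues the effect on Vars was -0.11 on the log2 scale (edgeR adjusted p = 0.872), since the effects in the 2 tissues had opposite signs.

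Markers of other cell types were set beside Vars. The summed Langerhans and dendritic cell markers were higher in both KO than in both WT libraries of skin and lower in both KO libraries of spleen, with no overlap. All spleen sums of this list lay below all its skin sums. Of their 8 genes, Cd207 and Flt3 were at 0 in both WT skin libraries, Cd207 in both WT spleen libraries, and Cd207, Itgax and Flt3 in both KO spleen libraries. Epcam, another of them, was at 32.997 and 44.361 (WT) and 18.884 and 25.622 (KO) CPM in spleen, without overlap. In skin it was at 119.132 and 159.78 (WT) and 101.997 and 140.881 (KO) CPM. Epcam thus followed the sum in spleen but overlapped between the genotypes in skin, so the sum is not a single signal shared by both tissues. B cell markers summed to 50.3 and 49.8 CPM in spleen for WT and 26.4 and 34.4 CPM for KO, also without overlap, and overlapped in skin. Their genes Ms4a1 and Pax5 were at 0 in both libraries of WT skin, KO skin and WT spleen. The part of these cells in the Vars result was not tested.

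The single-tissue calls each rested on few libraries. The skin call was lost without WT skin replicate 1 (0.66, edgeR adjusted p = 0.251) or KO skin replicate 2 (0.74, adjusted p = 0.211). The spleen call was lost without WT spleen replicate 1 (-1.09, edgeR adjusted p = 0.0855), WT spleen replicate 2 (-1.19, adjusted p = 0.0681) or KO spleen replicate 2 (-1.03, adjusted p = 0.141). The difference between the tissues passed the test in all 16 alternative settings, with values from 1.81 to 2.38 and edgeR adjusted p up to 0.0461 when 1 library was left out.

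**Figure D1:**
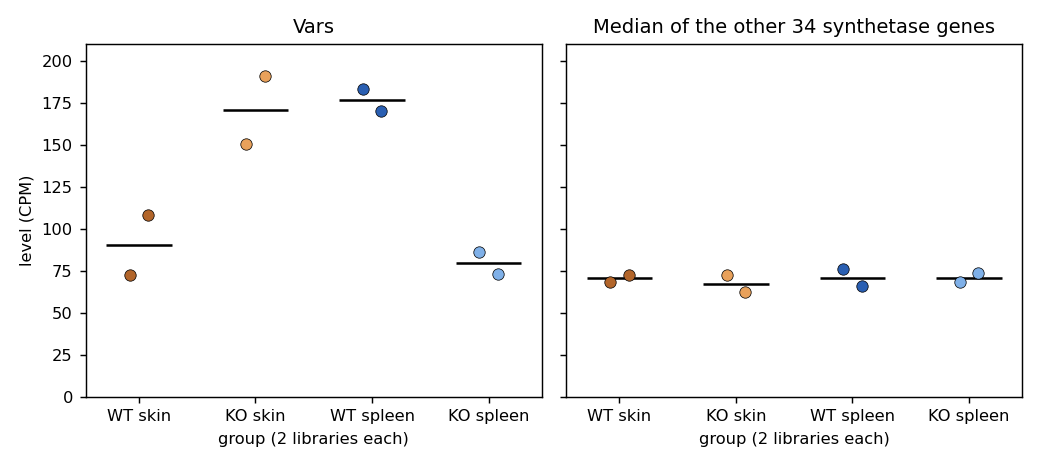
Vars level in CPM (vertical axis, from 0) in each of the 8 libraries (points), by group, with a bar at the mean of the 2 libraries, beside a panel of the median of the other 34 synthetase genes in the same library. WT spleen and KO skin lie between 150 and 191 CPM, WT skin and KO spleen between 72.8 and 108 CPM, while the median of the others stays between 62.1 and 75.8 CPM.

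Ordered by group mean, Vars was at 176 CPM in WT spleen, 171 in KO skin, 90.5 in WT skin and 79.7 in KO spleen. The first 2 groups overlapped in their libraries, as did the last 2, and the upper pair did not overlap the lower pair. The same 8 libraries, compared by tissue, put Vars lower in skin than in spleen in WT (-0.97 ± 0.180, edgeR adjusted p = 0.000514) and higher in skin than in spleen in KO (1.10 ± 0.180, adjusted p = 0.000185). These tissue contrasts share their libraries with the genotype contrasts, and their difference is the same quantity as the difference between the genotype effects.

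No other synthetase gene was called by genotype. In skin, the genotype test called 1 of the 35 genes, Vars, where 0.894% of all tested genes were called (0.306% higher in KO). In spleen it also called 1 of 35, again Vars, against 0.282% of all tested genes (0.274% lower in KO). For the difference between the tissues it called 1 of 35, against 0.0967% of all (0.0725% with the sign of Vars), and for the average over both tissues it called none, against 0.789% of all. Among the other 34, edgeR, DESeq2 and limma-voom each called 0 in these comparisons, and 1 in skin, 3 in spleen, 3 for the difference and 2 for the average had an unadjusted edgeR p under 0.05. Of all 12414 tested genes, 1342 in skin, 972 in spleen, 1178 for the difference and 1172 for the average had such a p. The counts among the 34 thus lay near or under the background. With no low-count filter, or without WT skin replicate 2, edgeR also called Lars2 for the difference. A p that misses the threshold does not show that these genes had the same level in both genotypes.

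The genotype log2 fold changes of the other 34 ran from -1.13 (Yars2) to 0.76 (Cars2) in skin, with a median of 0.04, and from -0.76 (Yars2) to 0.33 (Ears2) in spleen, with a median of -0.04. Over all tested genes the medians were 0.01 in skin and 0.00 in spleen. Yars2, the mitochondrial tyrosine enzyme, had few counts, at 0.302 to 8.66 CPM, and its SE in skin was 0.774, with -3.58 when KO skin replicate 1 was left out and -0.32 when KO skin replicate 2 was. Ears2 charges mitochondrial glutamate tRNA, and its SE in spleen was 0.334, with 0.48 when KO spleen replicate 1 was left out and 0.18 when KO spleen replicate 2 was.

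**Figure D2:**
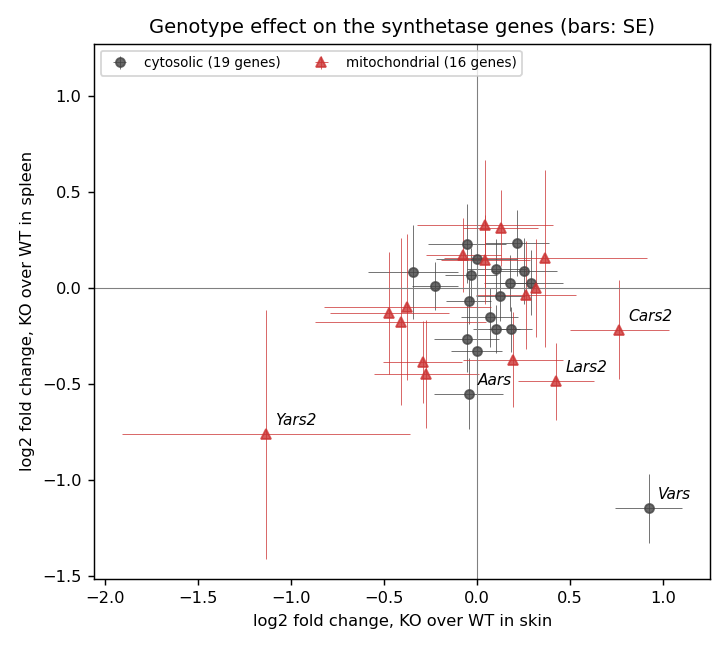
Log2 fold change, KO over WT, in skin (horizontal axis) and in spleen (vertical axis) for each of the 35 synthetase genes, with SE bars, cytosolic and mitochondrial genes marked apart. Vars stands at 0.92 in skin and -1.15 in spleen, and the other 34 lie between -1.13 and 0.76 in skin and between -0.76 and 0.33 in spleen.

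Cars2, the mitochondrial cysteine enzyme, was at 23.4 and 40.6 CPM in skin for WT, 56.5 and 50.7 for KO, and in spleen 51.2 and 46.4 for WT, 50.7 and 33.5 for KO. Its KO skin libraries were above its WT skin libraries, while the spleen groups overlapped, and neither the skin effect (0.76 ± 0.267, edgeR adjusted p = 0.260) nor the difference between the tissues (0.98 ± 0.371, adjusted p = 0.382) passed the test. Its cytosolic partner Cars had the most negative difference, -0.43 ± 0.344 (edgeR adjusted p = 0.772). Lars2, the mitochondrial leucine enzyme, was at 57.2 and 93.9 (WT) and 108 and 93.5 (KO) CPM in the skin libraries and 113 and 95.02 (WT) and 79.0 and 69.7 (KO) in those of the spleen. KO spleen was below WT spleen in both libraries, the skin groups overlapped, and the difference between the tissues was 0.91 ± 0.287 (edgeR adjusted p = 0.244).

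By the Pearson correlation of log2 levels over the 4 group means, the genes most like Vars were Lars2 (0.99), Kars (0.96), Sars (0.81) and Cars2 (0.79). These are descriptions over 4 points that come from the same libraries. Kars charges lysine tRNA in both compartments, and Sars the cytosolic serine tRNA. The size of the change differed: the ratio of the highest to the lowest group mean was 2.21 for Vars, the fourth largest of the 35 after the low-count genes Yars2 (4.97), Pars2 (3.18) and Vars2 (2.90), and Qars, the glutamine enzyme, had the smallest (1.05). KO libraries above WT in skin and below WT in spleen, with no overlap, occurred in 3 of the 35 synthetase genes (Dars, Kars and Vars), or 8.57%, against 4.6% of all tested genes.

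Read against its own family, Vars made up 2.21% and 3.41% of the summed synthetase CPM in the WT skin libraries and 4.204% and 5.69% in the KO skin libraries. In spleen its share was 5.46% and 5.32% (WT) and 2.81% and 2.41% (KO). The sum itself stayed between 3038 and 3577 CPM over the 8 libraries. Vars was 1.07 and 1.49 times the median of the other 34 in skin for WT and 2.08 and 3.07 times for KO, and in spleen it was 2.41 and 2.59 times for WT and 1.27 and 0.996 times for KO. The groups separated on this ratio as they did on CPM, with WT spleen and KO skin above WT skin and KO spleen.

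Each KO library was also set against each WT library of its tissue. The KO to WT ratio of Vars was 2.07, 1.39, 2.62 and 1.77 in the 4 skin pairs and 0.472, 0.508, 0.399 and 0.430 in the 4 spleen pairs. In spleen no other synthetase gene fell further than Vars in any of the 4 pairs. In skin, 3 other synthetase genes rose further than Vars in 1 pair and 2 in another, and none did in the remaining pairs.

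Of all 12414 genes, 2 were called in both tissues with opposite signs, Vars and Psmd3, which is 0.0161% of those tested. Psmd3 encodes a subunit of the regulatory particle of the proteasome and is no synthetase. It was at 14.6 and 31.3 CPM in skin for WT, 52.6 and 67.6 for KO, and in spleen 190.02 and 175 for WT, 60.7 and 42.2 for KO. Its order over the groups therefore differed from that of Vars, since WT spleen alone was high and KO skin overlapped KO spleen. Its genotype log2 fold change was 1.43 ± 0.298 in skin (edgeR adjusted p = 0.0474) and -1.83 ± 0.268 in spleen (adjusted p = 0.0203). Its skin call was lost in 7 of 17 alternative settings, including any 1 of WT skin replicate 1, either KO skin library or either WT spleen library left out (edgeR adjusted p = 0.0922 to 0.292), and its spleen call was lost without either WT spleen library or KO spleen replicate 2 (adjusted p = 0.111 to 0.141).

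The tested genes beside Vars were few, and none was called by genotype with edgeR. The 50 kb on each side of Vars, in the major histocompatibility region, held 18 other gene models, of which 8 were tested. Hspa1a and Hspa1b, near-identical copies whose counts are uncertain between them, were at 0 CPM in all 4 spleen libraries, and the pseudogene Gm8696 had at most 0.286 CPM there. These 3 passed the filter through skin alone and could not be called in spleen, so only the other 5 are counted for spleen and for the difference. edgeR called 0 of the 8 by genotype in skin and 0 of the 5 in spleen or for the difference, and 1, 0 and 0 had an unadjusted p under 0.05. Such a p was found for 1342, 972 and 1178 of all 12414 tested genes. Among all tested genes 0.894%, 0.282% and 0.0967% were called, so 0 calls among so few genes lay near the background. DESeq2 and limma-voom each called 1 in skin and none in the others. The genotype log2 fold changes ran from -0.64 to 0.22 in skin and from -0.28 to 0.09 in spleen. The lowest in skin was Hspa1a, an inducible heat shock chaperone, at -0.64 (edgeR adjusted p = 0.0575), the sign opposite to that of Vars, and it passed the test in 9 of 17 alternative settings, DESeq2 and limma-voom among them. Vwa7 starts 257 bases beyond the end of Vars and had too few counts to be tested, with a mean of 1.33 CPM in WT skin.

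**Figure D3:**
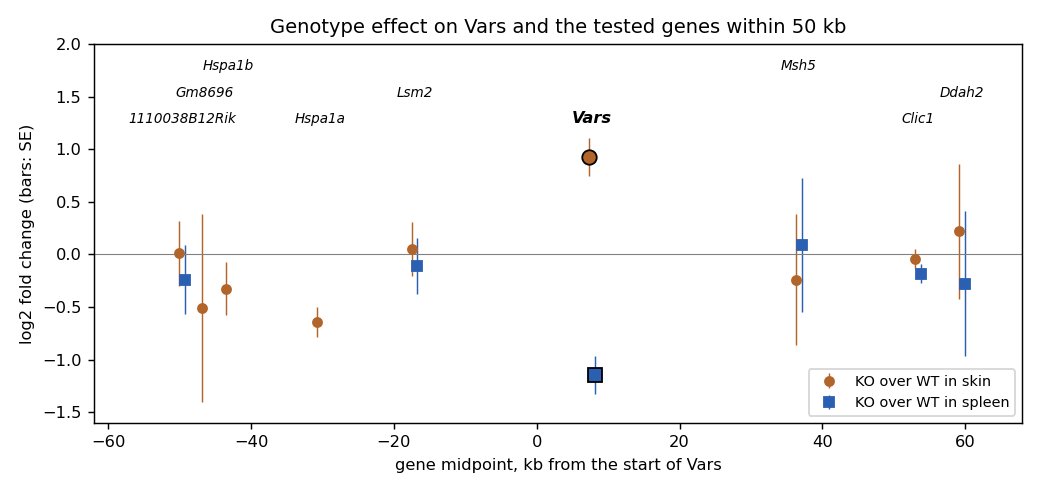
Genotype log2 fold change with SE bars in skin and spleen (vertical axis) for Vars and the tested genes within 50 kb, by distance of the gene's midpoint from the start of Vars in kb. A tissue is drawn only where both genotypes averaged at least 1 CPM, and Vars is the gene that lies at 0.92 and -1.15 while its neighbours lie between -0.64 and 0.22.

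Little of the Vars sequence is shared with other genes. Of its 5758 distinct 25-base words, the length of the reads, 99 (1.72%) also occurred in transcripts of another gene, all of them in the processed pseudogene Gm14780, which had 10 counts over all 8 libraries. Sharing was larger in Iars2 (24.2%, mainly with Rab3gap2, which overlaps it on the other strand), Iars (18.4%, with Gm4849) and Aars (15.3%, with Exosc6), so their counts are uncertain to that extent. Exons of Cars2 (with Naxd), Ears2 (with Ubfd1), Farsb (with Sgpp2) and Vars2 (with Gm20483) also overlap a gene on the opposite strand, as Hars and Hars2 do each other. So do exons of Fars2 (with Lyrm4 and Nrn1, over 10.7% of its exon bases), Cars (with Gm15580) and Nars2 (with C230038L03Rik). The same holds for Yars (with C77080) and Aars (with Gm24103). Whether the counting used strand is not given in the sources used here, and reads of such partners cannot be told apart without it.

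The synthetase genes spanned a wide range of levels. Per kilobase of annotated exon, taken as the union over all transcripts, the mean over 8 libraries was highest for Gars (57.5 CPM per kb), Dars, the aspartate enzyme (51.9), and Sars (50.9). The lowest were Wars2 (1.73), Yars2 (1.55) and Vars2 (1.28), the mitochondrial tryptophan, tyrosine and valine enzymes. Vars was at 23.1 CPM per kb, the twelfth of the 35. Cytosolic genes ran from 7.12 to 57.5 with a median of 30.8 CPM per kb, and mitochondrial genes from 1.28 to 15.2 with a median of 4.33. For valine, the cytosolic gene was therefore far above its mitochondrial partner, whose counts ranged from 9 to 46 per library.

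**Figure D4:**
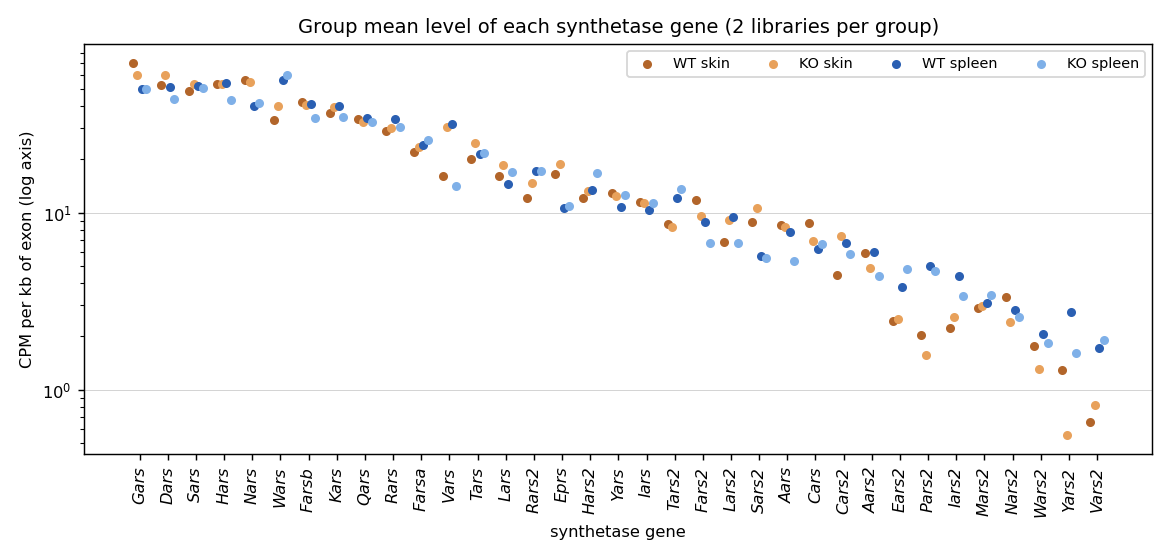
Level of each synthetase gene in CPM per kb of exon (log axis), 1 point per group mean of 2 libraries, with genes ordered by their mean over the 8 libraries. Gars stands first and Vars2 last, and the groups of Vars lie in 2 separate pairs, WT spleen and KO skin above WT skin and KO spleen.

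More of the family was called by tissue than by genotype. In WT, 8 of the 35 genes were called between skin and spleen (22.9%), against 31.8% of all tested genes, 3 higher and 5 lower in skin (16.6% and 15.2% of all). In KO, 9 of 35 were called (25.7%), against 29% of all, 6 higher and 3 lower (16.3% and 12.7% of all). Both shares lay near those of all genes, no test of the difference was made, and both counts ranged from 4 to 10 with 1 library left out.

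Eprs, the enzyme for glutamate and proline and part of the multi-synthetase complex, was higher in skin in both genotypes. Its level was 351 and 245 (WT) and 340.1 and 336 (KO) CPM in the skin libraries and 197 and 189.5 (WT) and 209 and 184 (KO) in those of the spleen. Every skin library was above every spleen library, and the log2 difference was 0.63 ± 0.145 in WT (edgeR adjusted p = 0.00305) and 0.78 ± 0.145 in KO (adjusted p = 0.000514). Without WT skin replicate 1 the WT call was lost (edgeR adjusted p = 0.0882).

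Gars and Nars, the glycine and asparagine enzymes, were also higher in skin in WT, by 0.50 ± 0.124 and 0.48 ± 0.141 on the log2 scale (edgeR adjusted p = 0.00488 and 0.0142). Gars had 216 and 222 CPM in WT skin against 145 and 165 in WT spleen, and 193 and 182 against 154 and 157 in KO, where it did not pass the test (edgeR adjusted p = 0.117). Nars was at 250.3 and 235 CPM in skin for WT, 237 and 239 for KO, and in spleen 195 and 153 for WT, 162 and 202 for KO, and in KO it was just past the threshold (0.38 ± 0.140, edgeR adjusted p = 0.0487), a call lost in 9 of 17 alternative settings, among them either KO skin library left out (adjusted p = 0.141 and 0.144) or KO spleen replicate 1 (0.24, adjusted p = 0.337). The skin and spleen libraries of both genes did not overlap. Without WT spleen replicate 1 the Gars call was lost (0.43, edgeR adjusted p = 0.0682), and the WT call of Nars was lost without WT skin replicate 1 (0.44, adjusted p = 0.0750) or WT spleen replicate 2 (0.35, adjusted p = 0.155). For neither gene did the tissue effect differ between the genotypes by the test of that difference (edgeR adjusted p = 0.746 for Gars and 0.940 for Nars).

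In KO, Aars, Dars and Sars2 were higher in skin as well. Aars was at 70.8 and 83.3 CPM in KO skin and 55.3 and 43.7 in KO spleen, a log2 difference of 0.64 ± 0.187 (edgeR adjusted p = 0.0155). Dars, a member of the complex, was at 247 and 274 CPM in KO skin and 195 and 188 in KO spleen (0.44 ± 0.117, adjusted p = 0.00816). Sars2, the mitochondrial serine enzyme, was at 31.4 and 39.2 CPM in KO skin and 15.9 and 20.6 in KO spleen (0.94 ± 0.273, edgeR adjusted p = 0.0145). None of the 3 overlapped between these tissues. In WT, Aars was at 83.9 and 74.7 CPM (skin) and 76.3 and 68.4 CPM (spleen), Dars at 233 and 226 against 221 and 225, and Sars2 at 27.6 and 31.3 against 16.8 and 20.9, and none of them passed the test there. The WT libraries of Dars and Sars2 did not overlap between the tissues either, while those of Aars did. For none of the 3 did the tissue effect differ between the genotypes by the test of that difference (edgeR adjusted p = 0.577 for Aars, 0.441 for Dars and 0.889 for Sars2). Without KO skin replicate 2 all 3 KO calls were lost (edgeR adjusted p = 0.123 for Aars, 0.0798 for Dars and 0.116 for Sars2), as were those of Aars and Dars without KO spleen replicate 2 (0.144 and 0.0561) and that of Sars2 without KO spleen replicate 1 (0.111). Mars1, the methionine enzyme, was at 132 and 107 CPM in KO skin and 85.0 and 89.2 in KO spleen (0.46 ± 0.160, edgeR adjusted p = 0.0395), a call lost in 5 of 17 alternative settings, among them KO skin replicate 1 (0.30, adjusted p = 0.318) or either KO spleen library left out (0.152 and 0.0975), and its exons overlap those of Ddit3 on the other strand.

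Wars, the cytosolic tryptophan enzyme and an interferon-inducible gene, was lower in skin in both genotypes. It was at 128 and 103 (WT) and 168 and 107 (KO) CPM in the skin libraries and 198 and 191 (WT) and 207 and 206 (KO) in those of the spleen. All 4 skin libraries were below all 4 spleen libraries, with log2 differences of -0.75 ± 0.177 in WT (edgeR adjusted p = 0.00408) and -0.59 ± 0.175 in KO (adjusted p = 0.0190). The KO call was lost without KO skin replicate 2 (-0.29, edgeR adjusted p = 0.248) or either KO spleen library (adjusted p = 0.0707 and 0.0793). Its mitochondrial partner Wars2 ran from 6.41 to 14.6 CPM over the skin libraries, which overlapped those of spleen at 9.25 to 14.0 CPM.

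Of the 16 mitochondrial genes, 3 were lower in WT skin and none higher, and 2 were lower and 1, Sars2, higher in KO skin. Among all tested genes, 15.2% were lower and 16.6% higher in WT skin, and 12.7% and 16.3% in KO skin. The shares called lower thus lay near the background. Pars2, the proline enzyme, was at 6.17 and 6.41 CPM in skin for WT, 3.70 and 6.03 for KO, and in spleen 16.4 and 14.6 for WT, 15.6 and 13.3 for KO. Its skin libraries were all below its spleen libraries, at -1.30 ± 0.411 in WT (edgeR adjusted p = 0.0224) and -1.57 ± 0.422 in KO (adjusted p = 0.00905). Iars2, the isoleucine enzyme, was lower in WT skin (22.2 and 17.4 against 42.4 and 35.8 CPM in WT spleen, -0.97 ± 0.259, edgeR adjusted p = 0.00831). In KO it was at 20.1 and 25.6 CPM in skin and 30.5 and 29.9 in spleen, also without overlap, and did not pass the test. Its tissue effect did not differ between the genotypes by the test of that difference (edgeR adjusted p = 0.690). Leaving out any 1 WT library lost the WT call of Pars2 (edgeR adjusted p = 0.0714 to 0.125), and leaving out KO skin or KO spleen replicate 1 lost its KO call (adjusted p = 0.0957 and 0.0547). Iars2 was lost without WT skin replicate 2 or WT spleen replicate 1 (edgeR adjusted p = 0.0713 and 0.0954).

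Tars2, the threonine enzyme, was at 58.1 and 56.1 CPM in KO skin and 76.6 and 111 in KO spleen, a log2 difference of -0.72 ± 0.198 (edgeR adjusted p = 0.0110). That call was lost without KO skin replicate 1 or 2 (edgeR adjusted p = 0.0551 and 0.0699) or KO spleen replicate 2 (-0.41, adjusted p = 0.226). Vars2 was at 2.22 and 4.98 CPM in WT skin and 9.36 and 9.44 in WT spleen (-1.42 ± 0.516, edgeR adjusted p = 0.0432), a call lost in 9 of 17 alternative settings, among them DESeq2 (adjusted p = 0.0832) and the fits without WT skin replicate 1 (-0.91, adjusted p = 0.301), KO skin replicate 2 (0.0505) or any 1 of the 4 spleen libraries (0.0617 to 0.143). Both genes had their skin libraries below their spleen libraries. Tars2 in WT, at 66.3 and 53.4 against 89.2 and 77.6 CPM, also did not overlap between the tissues and did not pass the test. Its tissue effect did not differ between the genotypes by the test of that difference (edgeR adjusted p = 0.870). Vars2 in KO, at 4.76 and 4.22 against 9.98 and 10.9 CPM, had a similar log2 difference, -1.21 ± 0.494, and did not pass the test (edgeR adjusted p = 0.0754).

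Over the compartments, the median log2 difference of skin from spleen was 0.04 in WT and 0.18 in KO for the 19 cytosolic genes, and -0.47 in WT and -0.27 in KO for the 16 mitochondrial genes. The medians of all tested genes were -0.04 and -0.03. Mitochondrial genes gave 14.0% to 16.4% of the summed synthetase CPM in the 4 skin libraries and 17.9% to 18.6% in the 4 spleen libraries, so that the tissues did not overlap on this share, while WT and KO did in both tissues.

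**Figure D5:**
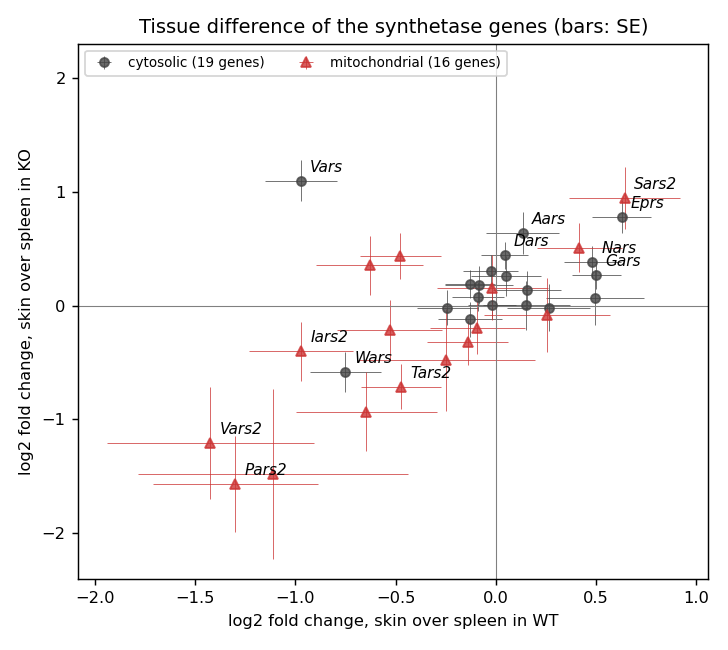
Log2 difference of skin from spleen in WT (horizontal axis) and in KO (vertical axis) for the 35 synthetase genes, with SE bars, cytosolic and mitochondrial marked apart and the called genes named. Vars alone among the called genes lies on opposite sides of 0 in the 2 genotypes, at -0.97 and 1.10, whereas Eprs is above 0 and Wars and Pars2 are below 0 in both.

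The rest of the protein synthesis machinery was read from lists of scaffold proteins of the complex, other tRNA ligation and editing enzymes, translation factors and mitochondrial ribosome genes, 63 tested genes together. edgeR, DESeq2 and limma-voom each called 0 of the 63 by genotype in skin, in spleen and for the difference, and 5, 0 and 1 had an unadjusted edgeR p under 0.05. Such a p was found for 1342, 972 and 1178 of all 12414 tested genes. The shares of all tested genes called by edgeR were 0.894%, 0.282% and 0.0967%, so 0 calls among 63 genes lay near the background. Their median genotype log2 fold change was 0.05 in skin and -0.02 in spleen. The 3 scaffold genes, Aimp1, Aimp2 and Eef1e1, did not pass the test in any comparison, and none had an unadjusted edgeR p under 0.05.

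Between the tissues, 3 of the 12 other ligation and editing genes were lower in WT skin: Trmu, which modifies mitochondrial tRNA (-1.08 ± 0.301, edgeR adjusted p = 0.0108), Gatc, a subunit of the mitochondrial glutamyl-tRNA amidotransferase (-1.77 ± 0.566, adjusted p = 0.0235), and Mtfmt, which formylates mitochondrial methionyl-tRNA (-0.82 ± 0.303, adjusted p = 0.0458). Among all tested genes, 15.2% were lower and 16.6% higher in WT skin. Of 22 translation factors, 4 were higher and 2 lower in WT skin, near or under these shares, among them Eif4e (0.68 ± 0.182, edgeR adjusted p = 0.00808), the cap-binding protein, and Eef1b2 (-0.46 ± 0.0983, adjusted p = 0.00151), an elongation factor subunit. Each of these 5 calls was lost with at least 1 library left out: Trmu and Eif4e without WT skin replicate 1 or WT spleen replicate 2 (edgeR adjusted p = 0.0573 to 0.144), Gatc without WT skin replicate 2 or WT spleen replicate 1 (0.132 and 0.249), and Eef1b2 without WT spleen replicate 1 (0.0595). Mtfmt was lost without any 1 of the WT libraries or either KO spleen library (edgeR adjusted p = 0.0528 to 0.339), by DESeq2 (0.0756) and limma-voom (0.0604), without robust estimation (0.0515) and with the replicate block (0.0516), and Gatc also by limma-voom (0.0529).

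Genes of the ATF4 amino acid response, the group that shares a regulator with many synthetase genes, were called by tissue in many cases. Of 21 tested, 13 were higher and 0 lower in skin in WT, where 16.6% of all tested genes were higher and 15.2% lower, and the counts were also 13 and 0 in KO, against 16.3% and 12.7% of all. In each genotype 8 did not pass the test and 2 had a log2 difference below 0, and the medians were 0.99 and 1.22. Slc38a2, a neutral amino acid transporter, was higher by 2.47 ± 0.128 in WT skin (edgeR adjusted p = 1.03e-10), and Slc3a2, the heavy chain of several amino acid transporters, by 1.80 ± 0.125 (adjusted p = 4.8e-09). Atf4 itself was higher by 1.67 ± 0.128 in WT (edgeR adjusted p = 1.8e-08) and 1.54 ± 0.128 in KO (adjusted p = 5.76e-08). By genotype, 1 of the 21 was called in skin and in spleen, Gpt2, a mitochondrial alanine transaminase, lower in KO, with log2 fold changes of -2.11 ± 0.282 in skin (edgeR adjusted p = 0.00104) and -2.97 ± 0.529 in spleen (adjusted p = 0.0246). Among all tested genes, 0.894% were called by genotype in skin and 0.282% in spleen. The spleen call of Gpt2 was lost when replicate 1 of either genotype in spleen was left out (edgeR adjusted p = 0.245 and 0.0547), by limma-voom (adjusted p = 0.269) and in the fit of only the groups compared (0.188). The counts of ATF4 targets called higher in skin stayed between 11 and 14 in all alternative settings, with none called lower.

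Among 10 tested integrated stress response kinases and factors, Ppp1r15a, a subunit of the eIF2α phosphatase, had a genotype log2 fold change of -0.56 ± 0.123 in skin (edgeR adjusted p = 0.0378). It was higher in skin than in spleen by 5.04 ± 0.152 in WT (edgeR adjusted p = 1.79e-13). Among all tested genes, 0.894% were called by genotype in skin and 0.0967% for the difference between the tissues. Of 19 amino acid sensing genes of the mTORC1 pathway, Sesn1, a leucine-binding stress protein, fell in KO skin, with a log2 fold change of -0.80 ± 0.128 (edgeR adjusted p = 0.00453), and its difference between the tissues was -1.03 ± 0.177 (adjusted p = 0.0257), opposite in sign to that of Vars. Of 19 MYC and nucleolar growth genes, Rrs1, a ribosome assembly factor, was higher in KO skin (2.28 ± 0.432, edgeR adjusted p = 0.0162), and its difference between the tissues was 3.78 ± 0.556 (adjusted p = 0.0114), the same sign as Vars. The skin call of Ppp1r15a and the difference of Sesn1 were lost without robust estimation (edgeR adjusted p = 0.0729 and 0.0583). The skin call of Rrs1 was lost by limma-voom (adjusted p = 0.0652). Leaving out WT skin replicate 1 or KO skin replicate 1 lost the skin calls of all 3 genes (edgeR adjusted p = 0.0679 to 0.409) and the difference calls of Sesn1 and Rrs1 (0.106 to 0.140). Ppp1r15a and Rrs1 in skin were also lost without KO skin replicate 2 (0.313 and 0.0533), and the difference of Sesn1 without either WT spleen library (0.0917 and 0.0867).

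Other lists moved with tissue beside the synthetase genes, and their part in the tissue results was not tested. Among all tested genes, 16.6% were higher and 15.2% lower in WT skin, and 16.3% and 12.7% in KO skin. All 30 proliferation genes were higher in skin in both genotypes, with median log2 differences of 1.35 and 1.37. Of 32 genes of the dissociation and heat shock response, which tissue digestion can induce, 23 were higher and 2 lower in WT skin, and 26 and 3 in KO skin. Of 36 interferon response genes, 3 were higher and 15 lower in WT skin, and 4 and 15 in KO skin. The interferon genes called lower in skin came to 9 without either KO skin library and 8 without KO spleen replicate 2 in KO, and to 10 without WT skin replicate 1 in WT. Those called higher in WT skin came to 1 without either KO skin library and 0 without WT skin replicate 2 or WT spleen replicate 1, and in KO they came to 1 without KO skin replicate 2 and 2 without KO spleen replicate 1.

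By genotype, 4 of the dissociation and heat shock genes were lower in KO skin, a count of 0 without KO skin replicate 2, 1 without WT skin replicate 1, 6 without either KO spleen library and 7 without WT skin replicate 2, and of 8 by DESeq2, 10 with no low-count filter and 11 by limma-voom. The 4 were Atf3, Socs3, Zfp36 and Jun, and their part in the Vars result was not tested. Among all tested genes, edgeR called 0.894% by genotype in skin (0.306% higher in KO) and 0.282% in spleen (0.274% lower in KO). Of the interferon genes, Ifi27l2a and Iigp1 were higher in KO skin, a count of 0 when KO skin replicate 2 or the first WT skin library was left out and of 1 when KO skin replicate 1 or WT spleen replicate 2 was. In spleen Iigp1 alone was called higher in KO, and 1 proliferation gene, Mcm4, was called lower. Both spleen counts were 0 without either WT spleen library, either KO skin library or KO spleen replicate 2, and without KO spleen replicate 1 the interferon count was 2 and the proliferation count 0.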

How the data were processed

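Polyadenylated RNA of 8 Treg libraries was sequenced as paired 25-base reads, per the labels' protocols. The authors deposited one table of whole-number counts per gene. STAR 2.7.3a, featureCounts and the build mm10 are named in the submitters' processing notes. The annotation counted, the use of strand and the handling of multiply matching reads were not given in the sources used here. Genes were kept with edgeR's filterByExpr (minimum count 10), scaled by TMM and fitted with edgeR 4.0.16 (robust quasi-likelihood, all 8 libraries, 1 coefficient per group, p-values adjusted by Benjamini-Hochberg over 12414 genes, threshold 0.05). The SE is the size of the log2 fold change divided by the root of the F statistic. CPM uses TMM-scaled library sizes. Replicates of a group differed by more than counting noise (chi-square per degree of freedom 4.31 to 6.74), with a common biological coefficient of variation of 17.5%. The fit was tested on simulated data. Samples of the same replicate number did not deviate together (correlations 0.028 to 0.112), so the numbers were not used as pairs. DESeq2 1.42.0, limma-voom (limma 3.58.1), other scalings and filters, a replicate block and leaving out each library were alternatives. Symbols were matched to GENCODE M21 for coordinates, and no read-level data were used.

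The synthetase genes and the other lists were chosen with earlier results of these data known. Genes named were Vars, every synthetase gene past the threshold in any of 6 comparisons, those with the extreme fold changes or levels per kb, their partners in the other compartment, up to 4 called genes per other list, and called neighbours of Vars. Hspa1a, Vwa7, Psmd3, the genes most like Vars and the genes with shared sequence were named after their values were seen. Results that need items withheld for evaluation are not reported here.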

Additional observations from a re-analysis of the deposited data

Results flagged for a closer look

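Vars was singled out because its genotype effect differed between the tissues by a test of the difference itself. The effect in skin (0.92 on the log2 scale) minus that in spleen (-1.15) was 2.07 ± 0.254, with an edgeR adjusted p of 0.00446. Both KO libraries were above both WT libraries in skin and below them in spleen.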

How the results depend on the processing

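With 2 libraries per group, a call in 1 tissue rested on single libraries, and a lone library was then assumed to vary like the other groups. With each library left out in turn, the Vars log2 fold change ranged from 0.66 to 1.23 in skin, from -1.26 to -1.03 in spleen, from 1.81 to 2.38 for the difference and from -0.25 to 0.037 for the average over tissues, where its sign turned without WT skin replicate 2 (0.037). The number of synthetase genes called ranged from 0 to 1 in skin, 0 to 1 in spleen, 1 to 2 for the difference, 4 to 10 between tissues in WT and 4 to 10 in KO; the cause was not tested. With no low-count filter 2 were called for the difference, Vars and Lars2. The difference for Cars, -0.43, ranged from -0.74 to 0.00098, turning its sign without WT skin replicate 1. With the replicate number as a block, Vars was at 0.93 in skin (edgeR adjusted p = 0.0177), -1.15 in spleen (0.00823) and 2.08 for the difference (edgeR adjusted p = 0.00524 in the replicate block fit), after 2.07 without it, and the block replaced Nars by Ears2 among the 9 genes called in KO. DESeq2, limma-voom, RLE and upper-quartile scaling, a stricter filter and fits of only the groups compared kept every Vars call in the comparisons where edgeR made one. Over all genes, the difference between tissues gave 12 calls by edgeR, 96 by DESeq2, 59 by limma-voom and 233 with no low-count filter. In spleen the count was 35 by edgeR, 84 by DESeq2 and 154 with no low-count filter, and in skin it was 111 against 344 with no low-count filter. Leaving out 1 library moved these counts, which are the background shares of the report. For the difference the count was 146 without WT skin replicate 2, 145 without KO spleen replicate 1, and 1 to 3 without WT skin replicate 1, either KO skin library or WT spleen replicate 2. In skin it was 29 without WT skin replicate 1, 33 and 54 without either KO skin library and 209 without WT skin replicate 2. In spleen it was 119 without KO spleen replicate 1, 7 without KO spleen replicate 2, 57 and 61 without either WT skin library, and 16 and 9 when replicate 1 or 2 of WT spleen was left out. For the average over tissues, 98 by edgeR, it was 49 to 54 without either WT spleen library, KO skin replicate 1 or KO spleen replicate 2. Yars2, Vars2 and Wars2 had the fewest counts, 146, 211 and 303 over the 8 libraries.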
